A study of Mus musculus with 4 samples.

Results

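Interferon-inducible GTPases and response genes were examined in heart ventricle of mice lacking the nuclear receptor ERRα (ERRa ko) and of wild-type mice (ERRa wt), both at baseline. The 9 genes Iigp1, Igtp, Irgm1, Gbp2, Isg15, Mx2, Ifit1, Ifit3 and Irf7 were taken with every probe set annotated to 1 of them alone, which gave 11 probe sets among 12422 on the array and 9 of the 8251 genes measured by such probe sets. They were selected on the signals of these same arrays, among them the high signals of ERRa wt replicate 2, so their values are a description and no test supports them. Total RNA was labelled with biotin and hybridised to 4 one-colour Affymetrix arrays, 2 per genotype. The labels give the genotype, the tissue and the baseline state, but not the allele, the strain, the age or the sex, and do not say whether the 2 samples of a genotype came from separate animals. ERRα itself is a regulator of mitochondrial energy metabolism.

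Interferons are cytokines of antimicrobial defence. Type I interferons and interferon γ signal through different receptors and share part of the kinase cascade that carries the signal to the nucleus. Type I interferon acts mainly through a complex that contains IRF9 on the interferon-stimulated response element (ISRE), and interferon γ mainly through the γ-activated site (GAS). The immunity-related GTPases (Iigp1, Igtp, Irgm1) and the guanylate-binding proteins (Gbp2) are strongly induced by interferon γ in mouse cells and act on vacuoles that hold intracellular pathogens. Isg15, the Ifit proteins and the Mx GTPases belong to the antiviral response.

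Promoters are shown first because most members carry the same short element while their signals differ in which array is highest. RefSeq promoter windows of 300 bases on GRCm38.p6, from 250 bases before the gene's start to 50 from it on, were read for 7 of the 9 members. Iigp1 and Mx2 are not among them, so the counts below leave both out. The ISRE core GAAANNGAAA was searched on both strands and found in 6 of these 7, against 3.44% of all 32851 promoter windows. Those 6 windows held 11 matches, some of which overlap each other. Irf7 was the member with a window and no match. The GAS core TTCNNNGAA, which reads the same on both strands, was found in 1 of the 7, Igtp, against 8.30% of all windows, and did not overlap the ISRE match there. A match is a run of letters in this window and does not show that a factor binds it.

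The match nearest to the start of each member is given below with 15 bases on either side, turned so that the core reads in 1 orientation. The core is in capitals. The windows of Irgm2, Gbp3 and Gbp7, GTPase genes outside the 9 whose profiles came out among the nearest to Iigp1, are added for comparison.

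Igtp, chr11:58199507-58199546, plus strand: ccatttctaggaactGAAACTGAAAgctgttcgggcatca

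Irgm2, chr11:58214898-58214937, plus strand: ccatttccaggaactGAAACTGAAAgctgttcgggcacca

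Irgm1, chr11:48871420-48871459, minus strand: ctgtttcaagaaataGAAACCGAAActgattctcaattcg

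Gbp2, chr3:142620589-142620628, minus strand: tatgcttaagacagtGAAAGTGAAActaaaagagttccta

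Gbp3, chr3:142559990-142560029, minus strand: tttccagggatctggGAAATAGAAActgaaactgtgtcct

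Gbp7, chr3:142530268-142530307, minus strand: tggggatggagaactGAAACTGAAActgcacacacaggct

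Isg15, chr4:156200860-156200899, minus strand: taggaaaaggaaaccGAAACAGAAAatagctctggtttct

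Ifit1, chr19:34640789-34640828, minus strand: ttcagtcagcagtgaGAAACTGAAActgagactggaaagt

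Ifit3, chr19:34583392-34583431, minus strand: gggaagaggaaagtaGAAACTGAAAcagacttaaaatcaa

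Igtp and Irgm2, neighbouring genes of 1 family, had the same base at 38 of the 40 positions of these windows, and both also held a GAS core ahead of the ISRE core. Igtp and Irgm1 had the same base at 23 of 40. The core GAAACTGAAA was the one shown in 5 of the 9 windows.

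The whole Igtp window (chr11:58199306-58199605, plus strand) and the whole Isg15 window (chr4:156200769-156201068, minus strand) are printed as examples of how the element is placed. Igtp held 1 match, whose first base lay 34 bases before the start. Isg15 held 3 overlapping matches, the first of which began 78 bases before the start. Igtp was highest on ERRa wt replicate 2 and Isg15 on ERRa wt replicate 1. Irgm1 and Gbp2, highest on ERRa wt replicate 2 as Igtp was, had first matches that began 30 and 59 bases before the start. Ifit1 and Ifit3, also highest on that array, had first matches that began 104 and 156 bases before the start. Their signals were too low to pass the filter described below. Whether placement goes with the highest array was not tested.

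Igtp: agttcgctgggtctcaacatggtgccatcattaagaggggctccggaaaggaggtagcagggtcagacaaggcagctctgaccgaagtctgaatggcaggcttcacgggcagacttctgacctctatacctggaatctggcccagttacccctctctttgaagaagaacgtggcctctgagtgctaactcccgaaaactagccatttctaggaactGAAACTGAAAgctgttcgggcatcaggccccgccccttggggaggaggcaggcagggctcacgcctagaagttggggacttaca

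Isg15: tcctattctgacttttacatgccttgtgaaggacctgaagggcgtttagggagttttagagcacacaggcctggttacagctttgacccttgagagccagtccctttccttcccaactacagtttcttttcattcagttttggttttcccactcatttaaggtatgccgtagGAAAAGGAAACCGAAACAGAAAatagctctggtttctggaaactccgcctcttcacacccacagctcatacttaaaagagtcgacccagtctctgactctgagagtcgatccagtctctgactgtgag

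The deposited values are 1 scaled signal per probe set and array, in arbitrary units, so levels of different probe sets are not set against each other. Esrra, the targeted gene, gave 922 and 1050.2 on the ERRa ko arrays and 8598 and 8038.5 on the ERRa wt arrays at its stronger probe set. Its other probe set, whose suffix marks probes shared with related sequences, was at least 25.1-fold lower in ERRa ko (limma adjusted p = 0.0441). Each array thus fitted the genotype of its label. At the stronger probe set limma did not call a difference of 8.45-fold (adjusted p = 0.179), so a gene that limma does not call may still differ between the genotypes. The 4 arrays were alike as wholes, with Spearman correlations across probe sets between 0.927 and 0.941 and ERRa wt replicate 2 closest to ERRa ko replicate 1. All 9 markers of heart muscle cells that were measured passed the filter on low signal, and Myl2, a ventricular myosin light chain, gave 154809 to 205416 over the 4 arrays. ERRa wt replicate 2 stood apart in the immunity-related GTPases, so differences between the genotypes are given with and without it.

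Iigp1, Igtp, Irgm1 and Gbp2 were higher on ERRa wt replicate 2 than on both knockout arrays and ERRa wt replicate 1. Iigp1, a GTPase that loads onto the vacuoles of intracellular parasites, gave 2161 and 1863 on the ERRa ko arrays, against 1756 and 21144 on the ERRa wt arrays, at its stronger probe set. ERRa wt replicate 2 was 9.78 times the highest of the other arrays, and ERRa wt replicate 1 was the lowest of all. The second Iigp1 probe set, whose suffix marks probes shared with related sequences, gave 611 and 922 on the ERRa ko arrays, against 784 and 7750 on the ERRa wt arrays, which put ERRa wt replicate 2 at 8.41 times the highest other array.

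Igtp, a regulatory member of the same GTPase family, gave 537 and 588 on the ERRa ko arrays, against 351 and 4136 on the ERRa wt arrays. Its signal on ERRa wt replicate 2 was 7.04 times the highest other array. Irgm1, another regulatory member, which mice need to resist mycobacteria, gave 302.2 and 297.7 on the ERRa ko arrays, against 302.4 and 690.4 on the ERRa wt arrays, with ERRa wt replicate 2 at 2.28 times the highest other array. The other 3 arrays were close to each other in Irgm1, and ERRa wt replicate 1 was the lowest array in Igtp.

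Gbp2, a guanylate-binding protein, gave 779 and 790.0 on the ERRa ko arrays, against 747 and 1249.5 on the ERRa wt arrays. ERRa wt replicate 2 was again the highest, by 1.58 times. The order of the arrays was therefore the same at the top for Iigp1, Igtp, Irgm1 and Gbp2, with the widest gap in Iigp1 and the narrowest in Gbp2.

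**Figure D1:**
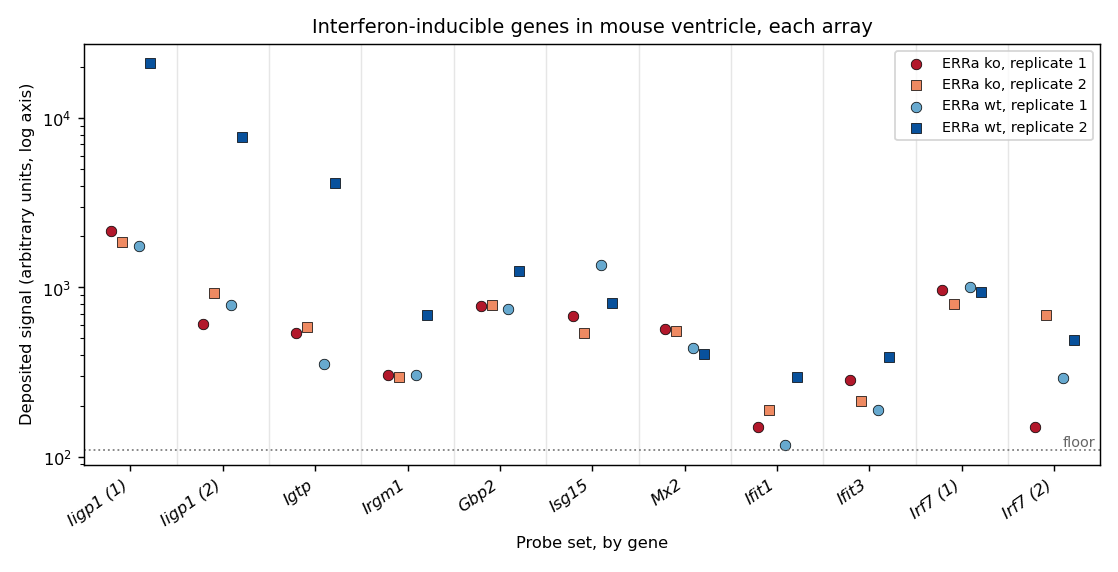
Deposited signal on a log axis for the 11 member probe sets, with 1 point per array (ERRa ko replicates in red and orange, ERRa wt replicates in light and dark blue) and the floor of 110 dotted. Iigp1 (1 and 2), Igtp and Irgm1 have ERRa wt replicate 2 far above the other 3 arrays, while Isg15 is highest on ERRa wt replicate 1 and Mx2 on the ERRa ko arrays.

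Isg15 and Mx2 did not share this order. Isg15, a ubiquitin-like protein that is joined to other proteins, gave 681 and 537 on the ERRa ko arrays, against 1363.5 and 815 on the ERRa wt arrays. It was highest on ERRa wt replicate 1 and both ERRa ko arrays lay below both ERRa wt arrays, a mean of 609 ± 102 in ERRa ko and 1089 ± 388 in ERRa wt (SD, n = 2 each). Mx2, a dynamin-like GTPase annotated as a transcribed pseudogene in the RefSeq table, gave 566 and 554 on the ERRa ko arrays, against 438 and 405 on the ERRa wt arrays. It was the only member gene whose knockout arrays both lay above the wild-type arrays, and ERRa wt replicate 2 was its lowest array.

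Ifit1, which binds viral RNA with an incomplete cap, gave 149 and 188 on the ERRa ko arrays, against 117 and 296 on the ERRa wt arrays. Ifit3, from the same family of tetratricopeptide-repeat proteins, gave 283 and 212.5 on the ERRa ko arrays, against 190.1 and 388 on the ERRa wt arrays. Both were highest on ERRa wt replicate 2 and lowest on ERRa wt replicate 1, so the knockout arrays lay between the wild-type arrays. Both had means under 350.6, the 40th percentile of all probe sets, and did not enter the fit across the array.

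Irf7, the transcription factor that amplifies type I interferon production, had 2 probe sets that disagreed. The stronger one, whose suffix again marks shared probes, gave 965 and 798 on the ERRa ko arrays, against 1006 and 941 on the ERRa wt arrays, a range of 1.26-fold over all 4 arrays. The other gave 149 and 688.5 on the ERRa ko arrays, against 292 and 490.3 on the ERRa wt arrays. Its knockout arrays were the lowest and the highest of the 4, so it gives no common level for the genotype.

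Set side by side, 10 of the 11 probe sets had a lower mean log2 signal in ERRa ko than in ERRa wt, with Iigp1 and Irf7 counted by 2 each. Among the 9 that passed the filter the mean was lower in 8, beside 3489 of all 7453 that passed. The genotypes overlapped in 8 of the 11 and in 6 of the 9, beside 4667 of the 7453. The members were chosen on these values, so no group result is read from the counts. Of the 9 probe sets that passed the filter on low signal, both knockout arrays lay below both wild-type arrays in 2, Irgm1 and Isg15, where 16.7% of all 7453 probe sets that passed did so. They lay above in 1, Mx2, where 20.7% of all did so. The Irgm1 count rests on 302.2 in ERRa ko replicate 1 against 302.4 in ERRa wt replicate 1. Irgm1 also passed the filter only through its signal on ERRa wt replicate 2. With each array scaled to a common median, the whole array split into 958 probe sets higher and 2014 lower in place of 1544 and 1242, its median difference moved from 0.03 to -0.09 on the log2 scale, and Gbp2 and the stronger Irf7 probe set joined Irgm1 and Isg15 below.

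The log2 differences, ERRa ko minus ERRa wt, were -1.60 and -1.72 for the 2 Iigp1 probe sets, -1.10 for Igtp, -0.61 for Irgm1 and -0.30 for Gbp2. Without ERRa wt replicate 2 they were 0.19 and -0.06 for Iigp1, 0.68 for Igtp, -0.01 for Irgm1 and 0.07 for Gbp2. Ifit1 and Ifit3 likewise had -0.15 and -0.15 with both wild-type arrays, and 0.52 and 0.37 without replicate 2. Isg15 had -0.80 with both and -1.17 without, and Mx2 0.41 and 0.35, so these kept their direction. The stronger Irf7 probe set had -0.15 and -0.20, and the other -0.24 and 0.14. Igtp thus had a knockout signal 2.14-fold lower with both wild-type arrays and 1.60-fold higher against ERRa wt replicate 1 alone.

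**Figure D2:**
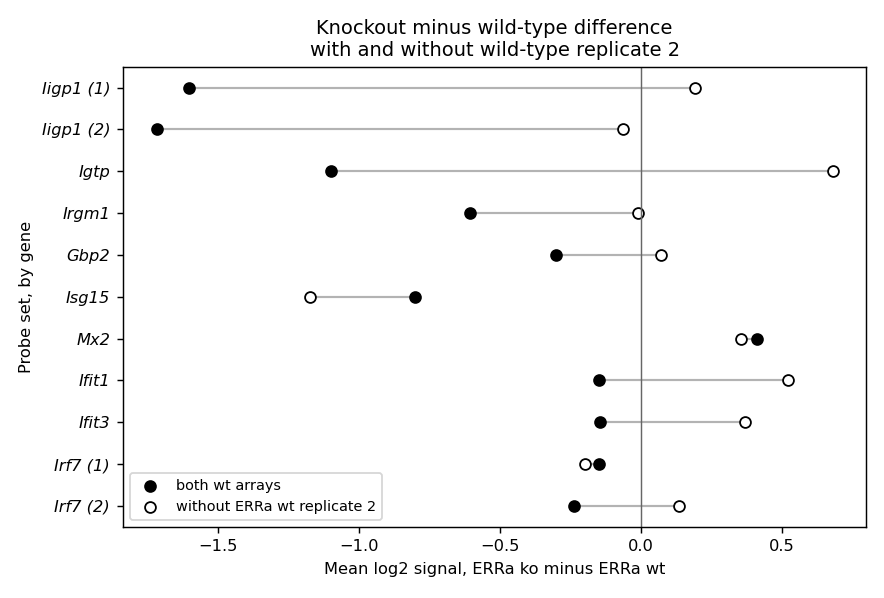
Mean log2 signal in ERRa ko minus ERRa wt for each member probe set, with both wild-type arrays (filled) and without ERRa wt replicate 2 (open). Iigp1 and Igtp lie between -1.72 and -1.10 with both wild-type arrays and between -0.06 and 0.68 without replicate 2, whereas Isg15 and Mx2 stay on the same side of 0.

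Against ERRa wt replicate 1 alone, both knockout arrays were higher in 4 of the 9 probe sets that passed, beside 36.6% of all, and lower in 3, beside 31.5% of all. A fit with limma across all 7453 probe sets called 1 of them (0.0134%) at a Benjamini-Hochberg adjusted p under 0.05, an Esrra probe set. It called 0 of the 9 member probe sets, and 0 of them had an unadjusted p under 0.05, against 506 of all. The members were chosen on this contrast, so nothing is read from that count. With 2 arrays a genotype, an exact permutation test of 1 gene (two-sided) cannot give a p below 0.333.

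The height of ERRa wt replicate 2 was then set against the whole array. It was the highest array in 5 of the 9 member probe sets that passed, beside 23.1% of all probe sets. It was at least 2 times the highest other array in 4 of the 9, the 2 of Iigp1 and those of Igtp and Irgm1, beside 0.376% of all, or 28 probe sets. The 2 Iigp1 probe sets and that of Igtp were the first, the second and the third of all 7453 in this ratio, and Irgm1 came at rank 23. These counts too belong to values the members were chosen on. Each of the other arrays also had probe sets of its own at 2 times or more, 34 in ERRa ko replicate 1, 25 in ERRa ko replicate 2 and 33 in ERRa wt replicate 1, with 0 member probe sets among them.

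**Figure D3:**
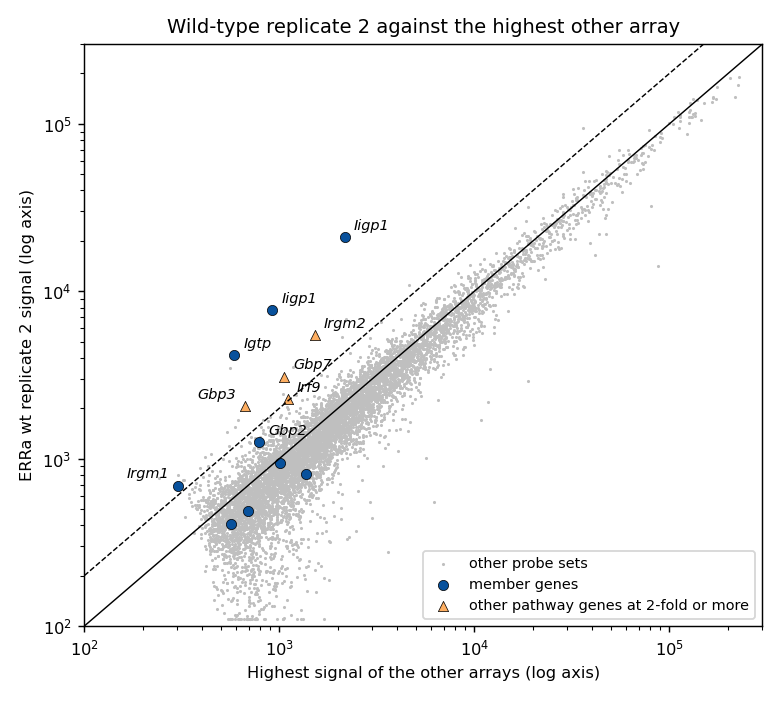
Signal on ERRa wt replicate 2 against the highest of the other 3 arrays for the 7453 probe sets that passed the filter, both axes logarithmic, with equality as a solid line and 2 times as a dashed line. Both Iigp1 probe sets, Igtp and Irgm1 (blue) and Irgm2, Gbp3, Gbp7 and Irf9 (orange) lie above the dashed line.

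Genes outside the 9 with the most similar profiles were found by the distance between log2 profiles over the 4 arrays, each centred on its own mean, among 6688 probe sets. The nearest to Iigp1 was Irgm2, a GTPase of the same family and the neighbour of Igtp, at a distance of 1.25 where the median probe set lay at 3.05. Irgm2 gave 1424 and 1523 on the ERRa ko arrays, against 826.5 and 5492 on the ERRa wt arrays. Next was Gbp3, a guanylate-binding protein encoded near Gbp2, with 667 and 519.6 on the ERRa ko arrays, against 515.5 and 2058 on the ERRa wt arrays.

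Another guanylate-binding protein gene, Gbp7, gave 1056 and 811 on the ERRa ko arrays, against 980.4 and 3094 on the ERRa wt arrays. The rest of the 10 nearest were not interferon genes of the lists used here: Erdr1, Lep, Cort, Ddit4, Wdr92, Mob2 and Ptpn23, at distances between 1.49 and 1.63. Ddit4, a stress-induced inhibitor of mTOR signalling, gave 2085.5 and 2091 on the ERRa ko arrays, against 2198 and 6852 on the ERRa wt arrays. High signal on ERRa wt replicate 2 was therefore not limited to interferon genes.

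Nearest to the mean profile of the members that passed were Irf9, Cebpb, Rab24, Tiparp and Tap1, at distances of 0.0833 to 0.179 where the median was 1.14. Irf9, the DNA-binding subunit of the ISRE-binding complex, gave 1105 and 1041.5 on the ERRa ko arrays, against 1095 and 2276.5 on the ERRa wt arrays. With 4 arrays, such likeness describes the profiles and carries no test. Of the 14 genes of both lists with a promoter window, 3 held an ISRE core, Irgm2, Gbp3 and Gbp7, beside 3.99% of all 27025 genes with a window. A GAS core was found in 4 of the 14, Irgm2, Gbp7, Cort and Ptpn23, beside 9.55% of those genes.

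**Figure D4:**
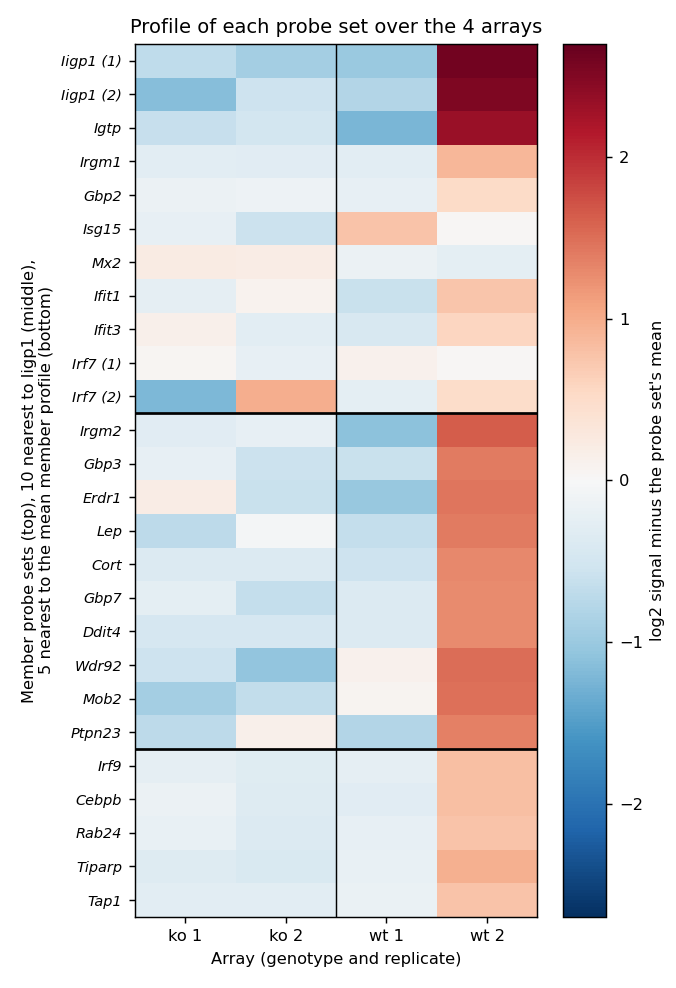
log2 signal minus the probe set's own mean over the arrays, from blue (lower) to red (higher), for the member probe sets (top), the 10 genes nearest to Iigp1 (middle) and the 5 nearest to the mean member profile (bottom). All rows of the lower blocks and 7 of the 11 in the top block are reddest on ERRa wt replicate 2. Those 7 are the first 5 rows, Ifit1 and Ifit3, whereas Isg15 is reddest on ERRa wt replicate 1.

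The rest of the interferon pathway showed no common shift between the genotypes. Of 153 listed genes 102 were measured and 65 passed the filter, 31 with a lower and 34 with a higher mean in ERRa ko, and their median log2 difference was 0.03, where it was 0.01 over all genes. limma called 0 of the 65 (adjusted p), and 2 of the 65 had an unadjusted p under 0.05, against 368 of all 5653 genes. Both knockout arrays lay below both wild-type arrays in 10 of the 65, beside 17.5% of all 5653 genes, and above in 12, beside 19.9%. ERRa wt replicate 2 was the highest array in 25 of the 65, beside 24.1% of all genes, and at least 2 times the highest other array in 4, Irgm2, Gbp3, Gbp7 and Irf9, beside 0.354%.

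Among the ligands, Ifng, which encodes interferon γ, gave 38.2 and 14.1 on the ERRa ko arrays, against 63.2 and 12.2 on the ERRa wt arrays, all under the floor of 110 set for low signals. A signal under the floor does not show that the transcript was absent. Of 12 ligand genes measured, 2 passed the filter. Ifna5, a type I interferon, gave 1618 and 2036 on the ERRa ko arrays, against 478 and 1373 on the ERRa wt arrays, from a probe set shared with related sequences (limma adjusted p = 0.772).

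Receptors and kinases were measured for 11 of 11 genes, and 8 passed the filter. Ifngr1, a chain of the interferon γ receptor, gave 1401 and 1234 on the ERRa ko arrays, against 798 and 1171 on the ERRa wt arrays. Ifnar2, a chain of the type I receptor, gave 488 and 563 on the ERRa ko arrays, against 332 and 469.7 on the ERRa wt arrays at its stronger probe set, whose suffix marks shared probes. Jak2, a kinase of the interferon γ receptor, gave 625 and 455 on the ERRa ko arrays, against 753 and 664 on the ERRa wt arrays. These were the genes of the 8 whose genotypes did not overlap, and limma adjusted p ran from 0.814 to 0.820. In ERRa ko 1 was lower, beside 17.5% of all genes, and 2 were higher, beside 19.9%.

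Of the transcription factors, Irf8, a factor of myeloid cells, gave 463 and 705 on the ERRa ko arrays, against 200.1 and 405 on the ERRa wt arrays (log2 difference 1.01, limma adjusted p = 0.748). Pias1, from the list of negative regulators, gave 641 and 689.5 on the ERRa ko arrays, against 231 and 588 on the ERRa wt arrays (limma adjusted p = 0.810). In the sensor list Tbk1, a kinase that activates IRF3, had a log2 difference of 0.22 (limma adjusted p = 0.854).

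The genes induced by interferon γ went both ways. Of 8 that passed the filter, 3 were at least 2 times higher on ERRa wt replicate 2 than on any other array, and 3 others, Ido1, Ifi30 and Upp1, lay higher on both knockout arrays than on both wild-type arrays (limma adjusted p between 0.799 and 0.820), beside 19.9% of all genes. Ido1, a tryptophan-degrading enzyme, gave 1047 and 915.5 on the ERRa ko arrays, against 802 and 35.7 on the ERRa wt arrays, so ERRa wt replicate 2 was its lowest array. Ifi30, a lysosomal thiol reductase, gave 539 and 1064 on the ERRa ko arrays, against 461 and 475 on the ERRa wt arrays. The chemokine Cxcl10 lay under the floor on every array.

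Genes induced by type I interferon had 10 lower and 8 higher means among 18 that passed, with 3 lower without overlap, beside 17.5% of all genes, and 1 higher, beside 19.9%. ERRa wt replicate 2 was at least 2 times higher than the other arrays in 0 of them. Samhd1, which breaks down nucleotides needed by viruses, gave 466.5 and 424 on the ERRa ko arrays, against 726 and 771 on the ERRa wt arrays. Ifitm3, which blocks virus entry, gave 9495 and 9947 on the ERRa ko arrays, against 12997 and 12164 on the ERRa wt arrays. Ly6e, a membrane-anchored antiviral protein, had 30836 and 27564 on the ERRa ko arrays, against 39837 and 34381 on the ERRa wt arrays. The limma adjusted p of these 3 ran from 0.694 to 0.814.

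Antigen-processing genes, which interferon γ also induces, lay on both sides, and limma called 0 of them (1 had an unadjusted p under 0.05). Tap1, a subunit of the peptide transporter, gave 803 and 805 on the ERRa ko arrays, against 874 and 1668 on the ERRa wt arrays (limma adjusted p = 0.814). Psme1, a proteasome activator subunit, gave 5540.4 and 5796 on the ERRa ko arrays, against 8495.5 and 11098 on the ERRa wt arrays (log2 difference -0.78, limma adjusted p = 0.694). Tapbp, which holds the class I molecule at that transporter, gave 2992 and 2789.6 on the ERRa ko arrays, against 1947 and 2311 on the ERRa wt arrays (log2 difference 0.45, limma adjusted p = 0.772). Of 17 genes that passed, 6 were lower in ERRa ko without overlap, beside 17.5% of all genes, and 2 were higher, beside 19.9%. ERRa wt replicate 2 was the highest array in 11 of the 17, beside 24.1% of all genes, and at least 2 times higher in 0.

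**Figure D5:**
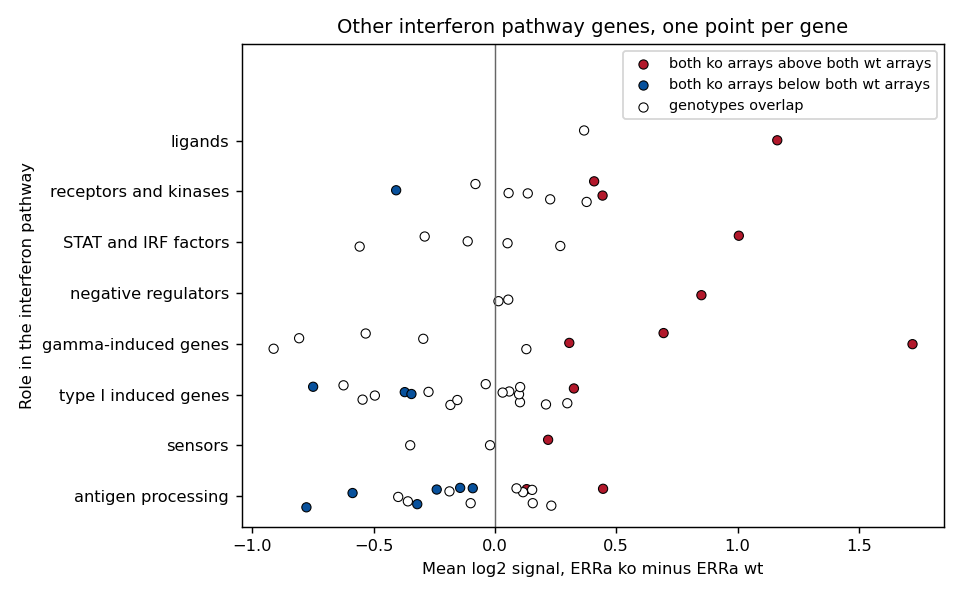
Mean log2 signal in ERRa ko minus ERRa wt for the 65 interferon pathway genes outside the 9 that passed the filter, 1 point per gene by role; filled points are genes whose genotypes do not overlap, red for higher and blue for lower in ERRa ko. Points lie on both sides of 0 in most roles, with 10 blue and 12 red in all.

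Markers of immune cells were read on the same arrays. In bulk tissue, fewer cells of a type and less RNA per cell cannot be told apart. A sum over markers mostly follows those of highest signal. Of 9 T cell markers measured, 5 (Cd2, Cd3d, Cd3g, Cd8a and Cd8b1) lay under the floor on all 4 arrays, and the summed signal was 1201 and 1542 on the ERRa ko arrays, against 1851 and 1308.5 on the ERRa wt arrays. The 11 macrophage markers summed to 30356.5 and 29373 on the ERRa ko arrays, against 29808 and 25422 on the ERRa wt arrays. ERRa wt replicate 2 was the lowest in this sum, but the markers did not share a direction. Without overlap, Cd14, Csf1r and Itgam were higher in ERRa ko, beside 1697 of all 8251 genes, and Adgre1 was lower, beside 1261. Adgre1 was highest on ERRa wt replicate 2, with 176 and 202 on the ERRa ko arrays, against 396.5 and 499.7 on the ERRa wt arrays. Adgre1 and Itgam did not pass the filter. The 6 natural killer and cytotoxic markers summed to 1223.5 and 1296 on the ERRa ko arrays, against 1472 and 1501 on the ERRa wt arrays. Only 1 of them, Prf1, passed the filter, and most of the gap between these sums lies in Gzmb. Of these 6, 1 was lower in ERRa ko without overlap, Gzmb, a granule protease that did not pass the filter, with 174 and 206 on the ERRa ko arrays, against 390.0 and 399.0 on the ERRa wt arrays. The genotypes overlapped in the other 5, and Klrk1, Klrd1 and Ncr1 had a higher mean log2 signal in ERRa ko. The B cell, neutrophil and dendritic cell sums on ERRa wt replicate 2 were 4587, 5390.1 and 3886.5, beside ranges of 4973 to 6236, 5599 to 6611 and 3525 to 4306.5 over the other 3 arrays. No list had a marker at 2 times or more on ERRa wt replicate 2, beside 62 of all 8251 genes. That share is so small that nothing is read from the absence. Fibroblast markers were higher without overlap in ERRa ko in 6 of 7, beside 19.9% of all genes, with no test of the list and sums of 84949 and 89269.5 on the ERRa ko arrays, against 62109.5 and 73170.3 on the ERRa wt arrays. Heart muscle cell markers were lower without overlap in 4 of 9 and endothelial markers in 2 of 7, beside 17.5% of all genes, and higher in 0 of either. The part of any of these cells in the GTPase signals was not tested.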

How the data were processed

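The authors deposited a linear intensity per probe set, scaled per array as far as the values themselves show; the labels name Affymetrix arrays and biotin-labelled cRNA, and the software, summary method and build are not given in the sources used here. Of 12422 probe sets without the 66 controls, 10833 had 1 gene symbol in the platform annotation, 396 several and 1193 none, and 10817 of the 10833 matched the RefSeq table of GRCm38.p6.

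Before taking log2, signals under a floor of 110 (20th percentile of all values) were raised to it. Probe sets with a mean under 350.6 (40th percentile) were left out, leaving 7453. The genotypes were fitted across these probe sets by lmFit and eBayes of limma 3.58.1 (R 4.3.3), with Benjamini-Hochberg adjustment; the code was tested on simulated data. Since separate animals are not stated, p-values reflect only how far these samples vary, possibly for technical reasons. For gene counts, the probe set of highest mean stood for the gene, and an SD is over 2 arrays. Only 4 arrays limit the precision.

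The members and all lists were chosen with earlier results of these data known. Named pathway genes were, per role, up to 3 with the largest difference among those whose genotypes did not overlap; others were named for their profile or after their values were seen. The labels give no pairing, and arrays of the same replicate number shared no common deviation across probe sets (correlation of the deviations 0.0113). That value cannot exclude a pairing that moves few genes. Alternatives covered floor, filter, scaling, prior, probe set choice, suffixes, the number as a block and leaving out each array.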

Additional observations from a re-analysis of the deposited data

How the results depend on the processing

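The number of probe sets called by limma over the whole array was 1. It was 0 with a floor at the 5th or 40th percentile, with no filter, without suffixed probe sets, with the replicate block and without any 1 array, and 2 with the stricter filter or with the trend and robust prior. Of the 7 member genes that passed the filter, 2 were lower in ERRa ko without overlap. That count was 1 with the floor at the 40th percentile and with the stricter filter, 4 after scaling to a common median, and from 2 to 5 without each array in turn (5 without ERRa wt replicate 1), where the lone array of a genotype is assumed to vary like the others. Their median log2 difference of -0.61 ran, over the left-out arrays, from -0.67 without ERRa wt replicate 1 to 0.0701 without ERRa wt replicate 2. Over the other settings it ran from -0.80 with the stricter filter to -0.30 over all 9 genes with no filter. For the rest of the pathway, 10 genes were lower without overlap, 16 after scaling to a common median and 14 to 30 without each array (21 without ERRa ko replicate 1, 20 without ERRa ko replicate 2, 30 without ERRa wt replicate 1), and the median of 0.03 ran from -0.12 to 0.05 without each array. Over all 7453 probe sets, the number lower without overlap rose as well. It was 1242 with all 4 arrays, 2014 after scaling to a common median and 2345 to 2413 without each array. The rises above are therefore not read as particular to these genes. The cause of the changes was not tested beyond the smaller number of arrays or genes that some settings use.

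For single member probe sets, the sign of the difference turned in 4 of 9 without ERRa wt replicate 2, and for the weaker Irf7 probe set with the floor at the 40th percentile (0.24) and without ERRa ko replicate 1 (0.86). The prior, the filter and the replicate block cannot move a probe set's fitted difference in this balanced design, so nothing is read from its value under them.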

Other observations

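Of the 15 listed genes outside the 9 that interferon γ or type I interferon induces and that were measured but too dim for the filter, ERRa wt replicate 2 was the highest array in 5, beside 16.9% of all 2598 genes that failed it. Both knockout arrays lay above both wild-type arrays in 5, Gch1, Icam1, Ubd, Ifitm1 and Sp100, beside 22.1%, and below in 2, Ifit2 and Mx1, beside 274 of the 2598. The genes described next were chosen after a look at their values. Ifit2, of the same family as Ifit1 and Ifit3, gave 82.8 and 124 on the ERRa ko arrays, against 159 and 334 on the ERRa wt arrays. Cmpk2, a mitochondrial nucleotide kinase induced by type I interferon, gave 66.9 and 139 on the ERRa ko arrays, against 94.7 and 338 on the ERRa wt arrays. Cxcl9, a chemokine induced by interferon γ, gave 304 and 122 on the ERRa ko arrays, against 238 and 492 on the ERRa wt arrays. Ifi47, a further immunity-related GTPase, gave 106 and 150.4 on the ERRa ko arrays, against 52.3 and 226 on the ERRa wt arrays. Sp100, a nuclear body protein, gave 465 and 339.6 on the ERRa ko arrays, against 249 and 153.5 on the ERRa wt arrays. Mx1, the antiviral relative of Mx2, was highest on ERRa wt replicate 1, with 112.5 and 16.8 on the ERRa ko arrays, against 206 and 197 on the ERRa wt arrays. No test was made of signals this close to the floor of 110.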
